A study of Mus musculus with 4 samples.

Results

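The tricarboxylic acid cycle is the loop of mitochondrial reactions that oxidises acetyl-CoA and delivers electrons to the respiratory chain. RNA levels are described here for 9 genes of this cycle, chosen by symbol for their place in it: Cs, Idh3a, Idh3b, Idh3g, Ogdh, Suclg1, Sucla2, Fh1 and Mdh2. All 9 were found among the 16718 genes of the table. The RNA came from naive mouse CD4+ T cells, the precursors of helper T cells, that had been stimulated for 4 hours with an antibody to CD3, which engages the T cell receptor. A conditional knockout of the zinc finger transcription factor Zfp281 (cKO) was set against the wild type (WT), with 2 libraries named for each genotype and the same stimulation in both. What drives the deletion, and the age of the mice, is not given in the sources used here.

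Each gene has a single value per genotype, in FPKM (fragments per kilobase of gene length, scaled to sequencing depth), and none for a library. How far libraries of a genotype differ is thus unknown, and there is no replicate check of any difference below. Behind the values stood an estimated 17208154 reads in cKO and 17365441 in WT. Folds are cKO over WT, with exact 95% intervals on estimated reads that cover counting error and nothing else. The words rose and fell are kept for genes with an FDR below 0.05 in the authors' deposited table, which compares sets of reads rather than conditions. Zfp281 itself had 0.44 FPKM in cKO and 66.3 FPKM in WT, the direction that the labels imply. Of 10 T cell markers 9 were measured, all of them high (153.0 to 524 FPKM in cKO, 139.4 to 448 FPKM in WT). The 8 B cell markers summed to 4.64 FPKM in cKO and 3.02 FPKM in WT, with Pax5 listed at 0 in WT. The 8 myeloid markers summed to 3.23 FPKM in cKO and 1.35 FPKM in WT. The 6 CD8 and cytotoxic markers summed to 29.5 FPKM in cKO and 23.6 FPKM in WT. Among them Cd8b1 (17.8 FPKM in cKO, 11.5 FPKM in WT) and Eomes (2.59 FPKM in cKO, 1.26 FPKM in WT) were higher. Prf1 was lower (8.42 FPKM in cKO, 10.45 FPKM in WT). Of 7 erythroid and platelet markers 4 were measured and summed to 1.12 FPKM in cKO and 0.94 FPKM in WT, with Hbb-bs listed at 0 in cKO and Hbb-bt in WT. The part of these cells in the differences below was not tested.

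As background, citrate synthase joins acetyl-CoA to oxaloacetate, and among the later enzymes isocitrate dehydrogenase, the alpha-ketoglutarate dehydrogenase complex, succinyl-CoA ligase, succinate dehydrogenase, fumarase and malate dehydrogenase lead back to oxaloacetate. Activated T cells use the cycle for energy and as a source of building blocks: citrate leaves it for lipid synthesis and histone acetylation, and glutamine feeds into it as alpha-ketoglutarate. Several of its enzymes are complexes of different subunits, so the RNA of 1 subunit does not give the amount of enzyme.

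In the Zfp281 knockout, the genes for fumarase (Fh1), malate dehydrogenase (Mdh2) and the isocitrate dehydrogenase subunits Idh3a and Idh3b fell, and the gene for the subunit Idh3g rose. Cs, Ogdh, Suclg1 and Sucla2 did not pass the test. Every difference was small, from 0.775 of the WT value for Fh1 to 1.13-fold for Idh3g. The 4 that fell are 44.4% of the 9 members, where 16.9% of the 10728 tested genes (1 FPKM or more in cKO or in WT) fell. The 1 that rose is 11.1% of the members, where 19.9% of those genes rose. A gene with more reads is called more easily: among the 5066 genes with as many reads as the members (1116 to 10800 in both genotypes together), 23% fell and 24.6% rose. These shares are descriptions, and the difference between 9 genes and the rest was not tested. The median change of the 9 was -0.05 on the log2(FPKM + 1) scale, against 0.02 over all genes tested. By size alone, Fh1 was the only member lower by at least 1.2-fold, as were 13.2% of all genes tested, and no member was higher by as much, as were 17.3%. The authors marked none of the 9 as changed, since their marks require at least a 2-fold difference.

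**Figure D1:**
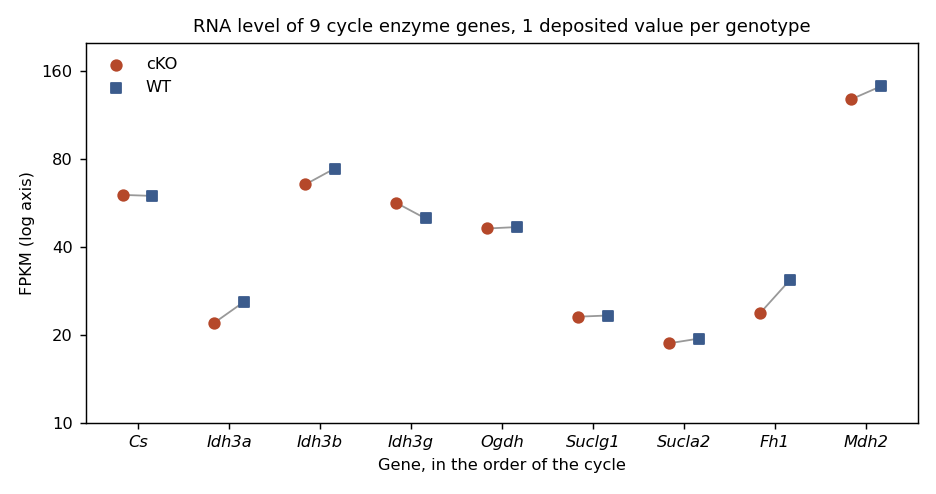
FPKM of the 9 cycle enzyme genes in the order of the cycle, on a log axis, with cKO as circles and WT as squares and 1 deposited value per genotype. Fh1 has the widest gap on this axis (23.8 FPKM in cKO, 30.7 FPKM in WT), Idh3g is the called gene with the higher value in cKO, and Cs, Ogdh, Suclg1 and Sucla2 are nearly level.

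The 9 genes differed more from each other than between genotypes. FPKM, which is per length, ranged 6.85-fold among them in cKO and 7.30-fold in WT. Mdh2 was the highest in both genotypes, at 128.2 FPKM in cKO and 141.7 FPKM in WT, above 95.7% of tested genes in cKO and 96.3% in WT. Sucla2 was the lowest, at 18.7 FPKM in cKO and 19.4 FPKM in WT. From the top, Mdh2, Idh3b, Cs, Idh3g, Ogdh and Fh1 took the same 6 places in both genotypes. Below them Suclg1 stood above Idh3a in cKO and under it in WT. In cKO the counting intervals of Fh1, Suclg1 and Idh3a overlapped, as did those of Idh3g and Cs and those of Cs and Idh3b. In WT those of Idh3a and Suclg1 overlapped, and those of Idh3g and Ogdh. Summed over the 9 genes, the level was 444 FPKM in cKO and 472 FPKM in WT, a ratio of 0.942. The 4 genes that fell summed to 239 FPKM in cKO and 272 FPKM in WT, a wider gap than over all 9, in part offset by Idh3g. Fewer cells of a kind and less RNA per cell cannot be told apart in such bulk values.

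The cycle opens with citrate synthase, encoded by Cs (NCBI gene 12974, GRCm38 chromosome 10, 128337727 to 128362482). Cs had 60.2 FPKM in cKO and 59.8 FPKM in WT, a ratio of 1.01 (95% interval 0.957 to 1.06), and did not pass (FDR 0.880 in the authors' deposited table). The counting interval of the ratio includes 1.

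The NAD-dependent isocitrate dehydrogenase is built from an alpha subunit that carries out catalysis (Idh3a) and the beta and gamma subunits (Idh3b and Idh3g), through which the enzyme is regulated. Its 3 genes moved in opposite directions. Idh3a (NCBI gene 67834, chromosome 9, 54586511 to 54604662) fell to 22.0 FPKM in cKO, against 25.9 FPKM in WT, a ratio of 0.850 (0.778 to 0.929) with an FDR of 0.00191 in the authors' deposited table. Idh3b (NCBI gene 170718, chromosome 2, 130279309 to 130284451) fell to 65.4 FPKM in cKO, against 74.2 FPKM in WT, a ratio of 0.883 (0.827 to 0.943) with an FDR of 0.00116 in the authors' deposited table. Idh3g (NCBI gene 15929, chromosome X, 73778963 to 73786897) rose to 56.6 FPKM in cKO, against 50.04 FPKM in WT, 1.13-fold (1.04 to 1.23) with an FDR of 0.0129 in the authors' deposited table. The interval of Idh3g does not overlap those of Idh3a and Idh3b.

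Ratios of subunits restate these folds as proportions and add no separate evidence. Idh3g stood at 0.864 of Idh3b in cKO and at 0.675 of Idh3b in WT, so that this ratio was 1.28 times as high in cKO (95% counting interval 1.16 to 1.42). Against Idh3a, Idh3g stood at 2.57 in cKO and 1.93 in WT, 1.33 times as high in cKO (1.18 to 1.497). The ratio of Idh3a to Idh3b was 0.336 in cKO and 0.349 in WT, a quotient of 0.963 whose interval, 0.863 to 1.07, includes no difference. These pairs were singled out after the values had been seen.

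The alpha-ketoglutarate dehydrogenase complex consists of the decarboxylase encoded by Ogdh, the transferase encoded by Dlst and the dehydrogenase encoded by Dld, which it shares with the pyruvate dehydrogenase complex. Ogdh (NCBI gene 18293, chromosome 11, 6291597 to 6359094) had 46.2 FPKM in cKO and 46.8 FPKM in WT, a ratio of 0.989 (0.952 to 1.03), on 5346 estimated reads in cKO and 5454 in WT. It did not pass (FDR 0.723 in the authors' deposited table), and its interval is the narrowest of the 9. Dlst had 55.2 FPKM in cKO and 54.7 FPKM in WT, a ratio of 1.01 (0.956 to 1.07). Dld had 31.9 FPKM in cKO and 33.0 FPKM in WT, a ratio of 0.965 (0.893 to 1.04). No gene of this complex passed, and the ratio of Ogdh to Dlst was 0.837 in cKO and 0.855 in WT.

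Succinyl-CoA ligase pairs the alpha subunit encoded by Suclg1 with 1 of 2 beta subunits. These are named ADP-forming (encoded by Sucla2) and GDP-forming (encoded by Suclg2). Suclg1 (NCBI gene 56451, chromosome 6, 73248505 to 73276907) had 23.1 FPKM in cKO and 23.3 FPKM in WT, a ratio of 0.991 (0.880 to 1.12; FDR 0.956 in the authors' deposited table). Sucla2 (NCBI gene 20916, chromosome 14, 73552786 to 73596144) had 18.7 FPKM in cKO and 19.4 FPKM in WT, a ratio of 0.964 (0.867 to 1.07; FDR 0.688 in the authors' deposited table). Neither passed, and these 2 genes rest on the fewest reads of the 9 in WT (563 for Suclg1 and 709 for Sucla2), so differences within these intervals could not be detected. Suclg2 had 7.46 FPKM in cKO and 7.93 FPKM in WT and did not pass. The ADP-forming subunit was the more abundant beta subunit in both genotypes, at 2.51 times Suclg2 in cKO and 2.45 times in WT.

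Succinate dehydrogenase, which is also complex II of the respiratory chain, is encoded by Sdha, Sdhb, Sdhc and Sdhd, none of which is among the 9. Their ratios ranged in value from 0.927 for Sdhc (44.5 FPKM in cKO, 47.9 FPKM in WT) to 1.04 for Sdha (86.0 FPKM in cKO, 82.3 FPKM in WT). Sdhb had 63.7 FPKM in cKO and 63.8 FPKM in WT, and Sdhd 25.5 FPKM in cKO and 25.6 FPKM in WT. None of the 4 passed. Together with Dlst, Dld and Suclg2 they make 7 further subunits of the cycle. Of these 7, 0 fell and 0 rose by the deposited FDR, where 16.9% of all genes tested fell and 19.9% rose. In the authors' deposited table a single one of the 7, Sdha, had an unadjusted p below 0.05 (p = 0.0460). Their summed level was 314 FPKM in cKO and 315 FPKM in WT, and their median change was -0.005 (log2). Over the 9 members and these 7 genes 4 fell, 1 rose and 11 did not pass.

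The last steps of the cycle held the largest fall. Fumarase, encoded by Fh1 (NCBI gene 14194, chromosome 1, 175601378 to 175625635), hydrates fumarate to malate and is found in the cytosol as well as in mitochondria. Fh1 fell to 23.8 FPKM in cKO, against 30.7 FPKM in WT, a ratio of 0.775 (0.6996 to 0.858) on 669 estimated reads in cKO and 871 in WT. The authors' deposited table lists an FDR of 6.75e-06 for it, the smallest of the 9, and 7.66% of all genes tested had a lower ratio. Malate dehydrogenase, encoded by Mdh2 (NCBI gene 17448, chromosome 5, 135778649 to 135790386), closes the cycle by regenerating oxaloacetate. Mdh2 fell to 128.2 FPKM in cKO, against 141.7 FPKM in WT, a ratio of 0.905 (0.859 to 0.952) with an FDR of 0.000772 in the authors' deposited table. In FPKM this was the widest gap of the 9, -13.5 FPKM, and as a ratio the narrowest of the 5 that passed. Relative to Sdha, the step before it, Fh1 stood at 0.277 in cKO and 0.373 in WT, a quotient of 0.742 (0.665 to 0.828). This pair too was chosen after its values were seen.

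**Figure D2:**
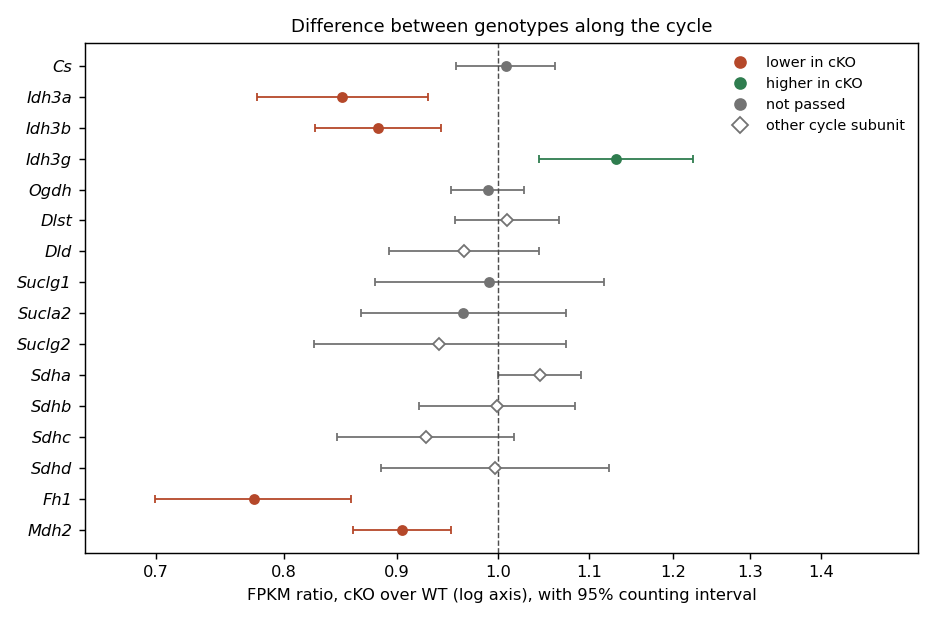
Ratio of FPKM, cKO over WT, on a log axis for 16 genes in the order of the cycle, with 95% intervals for counting error. Filled circles are the 9 members and open diamonds the other 7 subunits. Fh1 (0.775), Idh3a (0.850), Idh3b (0.883) and Mdh2 (0.905) lie left of 1 and Idh3g (1.13) lies right of it, while the intervals of the genes that did not pass reach or nearly reach 1.

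How far these calls carry depends on the spread between libraries. If libraries varied with a coefficient of variation (CV) of 10%, placed in full on the reads of each genotype, 0 of the 9 members would have fallen and 0 risen. Under that assumption 0.988% of all genes tested would have fallen and 1.25% risen. Raising the assumed CV in steps of 1%, Fh1 last passed at 5%, Idh3a at 3%, and Idh3b, Idh3g and Mdh2 at 2%.

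**Figure D3:**
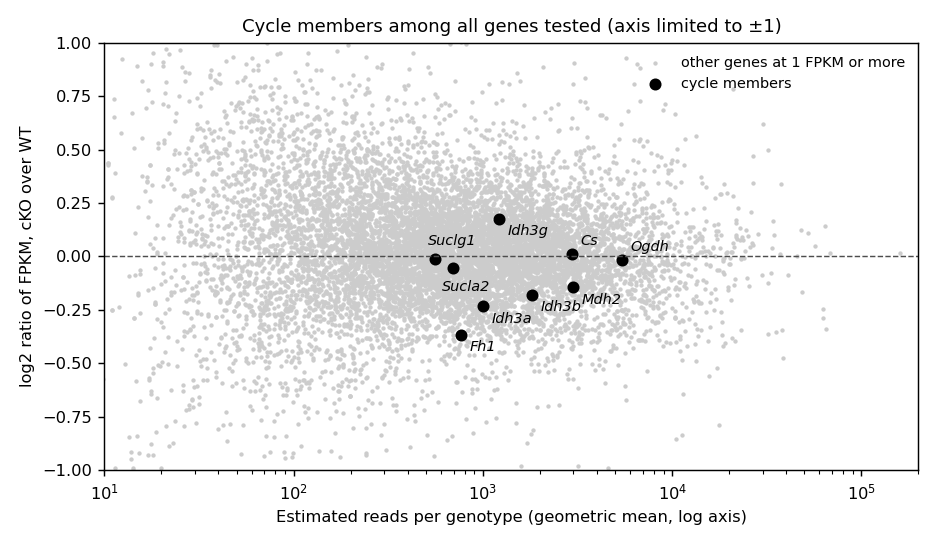
Log2 ratio of FPKM, cKO over WT, against the estimated reads per genotype (geometric mean, log axis) for genes at 1 FPKM or more, with the vertical axis limited to 1 on either side of 0. The 9 members (black) lie within the cloud of all other genes (grey), with Fh1 nearest its lower edge.

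For the gene with the lowest ratio, Fh1, and the only one that rose, Idh3g, the 120 bases before the transcription start are shown (RefSeq, GRCm38.p6, 5′ to 3′ on the strand of the gene). Capitals mark matches to 5 motifs searched on both strands: CCGGAAG, the core bound by ETS factors such as GABP, GCGCANGCG, bound by NRF1, the E-box CACGTG, the GC box GGGCGG, and the G-rich run GGGGAGGGG.
Fh1, chr1:175625636-175625755, minus strand: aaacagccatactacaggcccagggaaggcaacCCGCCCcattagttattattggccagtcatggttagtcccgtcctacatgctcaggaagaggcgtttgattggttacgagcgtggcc
Idh3g, chrX:73786898-73787017, minus strand: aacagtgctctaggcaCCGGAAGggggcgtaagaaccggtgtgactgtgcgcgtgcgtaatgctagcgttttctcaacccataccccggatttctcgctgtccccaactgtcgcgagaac
These stretches are shown because the 2 genes mark the ends of the range of ratios. The capitals in Fh1 are a GC box on the opposite strand, and those in Idh3g an ETS core. In these stretches no match overlaps another. Over the 250 bases before the start, Idh3g also held the G-rich run on the opposite strand, 139 to 131 bases upstream. Of the 9 members 8 were in the promoter table, Idh3a being the exception. The GC box was found in 4 of these 8 (Cs, Fh1, Mdh2 and Sucla2) and in 60.4% of 8437 promoters of tested genes. The ETS core was found in 1 of 8 (Idh3g) and in 15.8% of all, the NRF1 motif in 1 of 8 (Sucla2) and in 12.6%, the G-rich run in 1 of 8 (Idh3g) and in 7.14%, and the E-box in 0 of 8 and in 8.88%. Among the genes that fell, Fh1 and Mdh2 held the GC box and Idh3b held none of the 5. A match is a run of letters and not evidence of binding.

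Some members lie close to other genes, whose reads could be confused with theirs if the libraries did not keep the strand, which is not given in the sources used here. Idh3b ends where Nop56, a gene of ribosome biogenesis on the other strand, also ends, and the 2 overlap by 5 bases in the GENCODE annotation. Nop56 fell to 130.9 FPKM in cKO, against 166.0 FPKM in WT (ratio 0.788, 0.757 to 0.821). Idh3g starts 131 bases from the start of Ssr4, on the opposite strand, a gene for a subunit of the translocon-associated complex of the endoplasmic reticulum. Ssr4 fell to 70.8 FPKM in cKO, against 83.3 FPKM in WT (0.849, 0.775 to 0.929), so these neighbours with adjoining starts moved in opposite directions. The stretch printed for Idh3g is also the one between these starts. Styxl1, whose start lies 95 bases from that of Mdh2, stood at 0.28 FPKM in cKO and 0.51 FPKM in WT. Kmo, which overlaps Fh1 by 5255 bases on the other strand, stood at 0.02 FPKM in cKO and 0.07 FPKM in WT. Kmo and Styxl1 were thus below 1 FPKM in both genotypes. The annotated overlap of Idh3b and Nop56 is 5 bases, beside an Idh3b length of 1520 bases. Reads shared by these genes were not tested.

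Genes that feed the cycle or handle its metabolites elsewhere were counted in 3 further lists, to be read against the 16.9% of all genes tested that fell and the 19.9% that rose. Of 12 tested genes for the entry of pyruvate 0 fell and 2 rose (16.7%), both for kinases that switch off pyruvate dehydrogenase. Pdk2 rose to 7.58 FPKM in cKO, against 5.21 FPKM in WT, 1.45-fold (1.21 to 1.75), and Pdk1 to 22.6 FPKM in cKO, against 20.5 FPKM in WT (109.98% of WT, ratio interval 1.03 to 1.17). Pdk3, another such kinase gene, did not pass, at 8.91 FPKM in cKO and 9.36 FPKM in WT (ratio 0.952). Pdk4 was under 1 FPKM in both genotypes (0.34 FPKM in cKO, 0.30 FPKM in WT). Of 7 tested genes for glutamine use and the refilling of the cycle 0 fell and 3 rose (42.9%). One of these, Gls2, entered the test only through its value in cKO, since its WT value is under 1 FPKM, so its direction was favoured by the filter and the share is a description. Gls2, a glutaminase gene, rose to 1.49 FPKM in cKO, against 0.15 FPKM in WT, 9.93-fold on 63 and 6 estimated reads (4.61 to 30.0). Me2, encoding mitochondrial malic enzyme, rose to 35.2 FPKM in cKO, against 29.8 FPKM in WT, 1.18-fold (1.09 to 1.27). Gpt, an alanine transaminase gene, rose 1.49-fold (1.09 to 2.05) at 3.39 FPKM in cKO and 2.27 FPKM in WT.

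Of 11 tested genes listed for citrate, isocitrate and malate outside the cycle, with carriers of the malate-aspartate shuttle counted in, 0 fell and 4 rose (36.4%). Slc25a12, a carrier of aspartate and glutamate in the malate-aspartate shuttle, rose to 21.2 FPKM in cKO, against 16.6 FPKM in WT, 1.28-fold (1.17 to 1.40). Idh2, the NADP-dependent isocitrate dehydrogenase of mitochondria, rose to 15.8 FPKM in cKO, against 12.8 FPKM in WT, 1.24-fold (1.08 to 1.42). Slc25a10, a dicarboxylate carrier, rose 1.49-fold (1.15 to 1.94), at 2.18 FPKM in cKO and 1.46 FPKM in WT. Mdh1, the cytosolic malate dehydrogenase, rose to 47.2 FPKM in cKO, against 43.0 FPKM in WT, 1.098-fold (1.02 to 1.18). The list's median change was 0.13 (log2). Set beside the members, the ratio of Mdh1 to Mdh2 was 0.368 in cKO and 0.303 in WT, 1.21 times as high in cKO (1.11 to 1.33), and that of Idh2 to Idh3a was 0.720 in cKO and 0.494 in WT, 1.46 times as high (1.24 to 1.71). These isoenzyme pairs were chosen with the values known. With an assumed CV of 10%, the calls named in these 3 lists would all have been lost except that of Gls2, the gene admitted by its cKO value alone.

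Among 8 genes for the lipoate and thiamine cofactors and for assembly of succinate dehydrogenase 0 fell and 0 rose. Of 13 tested regulators of mitochondrial gene expression 3 fell (23.1%) and 1 rose (7.69%), where 16.9% of all genes tested fell and 19.9% rose. Pprc1, a coactivator of the PGC-1 family, fell to 46.0 FPKM in cKO, against 61.9 FPKM in WT (0.743, 0.714 to 0.774), Myc fell to 120.9 FPKM in cKO, against 139.96 FPKM in WT (0.864, 0.832 to 0.897), and Tfb2m, a mitochondrial transcription factor gene, to 0.862 (0.775 to 0.959). Gabpb1, a subunit of GABP, rose 1.15-fold (1.06 to 1.24). Nrf1, Gabpa, Esrra and Tfam did not pass, with log2 ratios between -0.04 for Nrf1 and 0.01 for Esrra. Over all 9 regulators that did not pass, log2 ratios ranged wider, from -0.21 for Tfb1m to 0.09 for Yy1. Tfb1m rests on few reads (91 estimated in cKO, 107 in WT).

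In 2 larger lists of mitochondrial proteins falls also outnumbered rises, with most genes not passing. One list took oxidative phosphorylation genes by symbol and left out complex II. Of its 74 tested genes 8 fell (10.8%, where 16.9% of all genes tested fell), 3 rose (4.05%) and 63 did not pass, with a median change of -0.03 (log2). Of these, Cox5a fell to 69.6 FPKM in cKO, against 83.0 FPKM in WT, and Cox7a2l rose to 194.8 FPKM in cKO, against 173.1 FPKM in WT. Of 77 mitochondrial ribosomal protein genes 15 fell (19.5%), 1 rose (1.30%) and 61 did not pass, with a median of -0.08 (log2). Mrps6 fell to 38.0 FPKM in cKO, against 53.1 FPKM in WT, and Mrpl12 to 48.2 FPKM in cKO, against 61.6 FPKM in WT. Of 21 tested glycolysis genes 11 fell (52.4%) and 4 rose (19.0%), with a median of -0.15 (log2). Of 11 activation genes 10 fell (90.9%) and 1 rose (9.09%), with a median of -0.29 (log2). Over all genes tested, 16.9% fell and 19.9% rose, and a gene with more reads is called more easily. The median of the 9 cycle members, -0.05, lies between those of the oxidative phosphorylation and mitochondrial ribosomal lists; differences between lists were not tested.

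**Figure D4:**
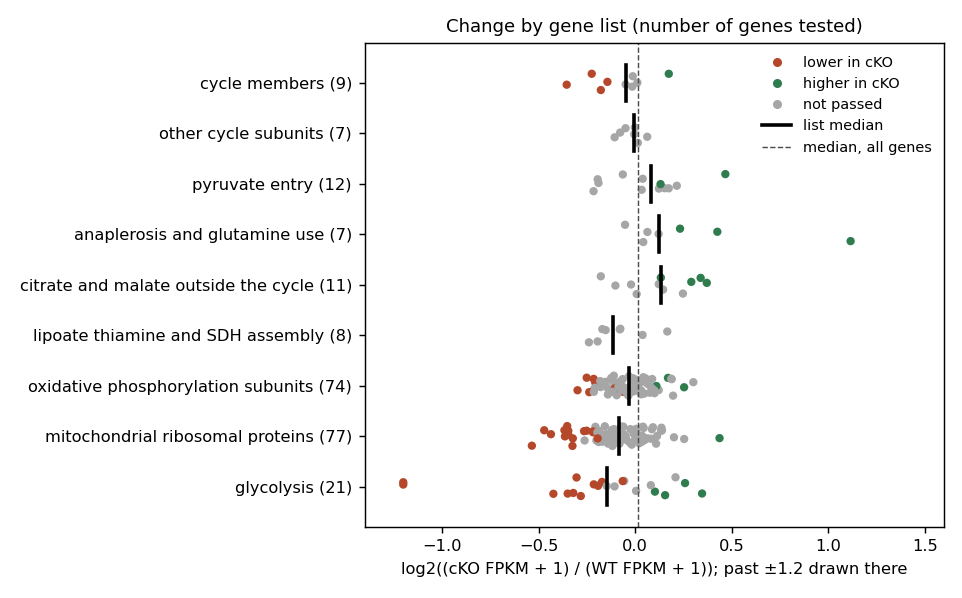
Change on the log2((cKO FPKM + 1) / (WT FPKM + 1)) scale for each tested gene of 9 lists, with the list medians as bars and the median of all genes tested as a dashed line. The cycle members spread from -0.35 for Fh1 to 0.17 for Idh3g, the other cycle subunits stay near 0, and the called genes of the pyruvate, glutamine and citrate lists lie to the right.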

How the data were processed

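Libraries were run on a BGISEQ-500, per the labels' protocols. Bowtie2 2.2.5 and mm10 are named in the submitters' processing notes; for quantification, annotation and test, the tool was not given in the sources used here. Per the file headers the authors deposited 1 expression column per genotype, without stating its unit or how libraries were joined. The deposited values behave as FPKM, since those of genes with 1 read scale with length. The deposited log2 fold change is the log2 ratio of those columns, where 0.01 stands for 0. The deposited p-value is the authors' own. The authors' deposited FDR exceeds 1 for some genes and is handled as a score.

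Reads per gene were estimated from the step seen in 157 genes with 1 read in cKO and none in WT (56.7 FPKM bases per read, offset 36 bases), calibrated on the deposited p-values. An Audic-Claverie test on these reads tracked the deposited p-values over 10717 genes (r = 0.999 on the log10 scale, in part by the fit), so the deposited test allows for no variation between libraries. Calls took genes at 1 FPKM or more in cKO or WT with a deposited FDR below 0.05. Ratio intervals are Clopper-Pearson (95%), level intervals exact Poisson, and intervals for ratios of 2 genes normal on the log scale. For an assumed CV, the log ratio was tested with the CV added to the counting error of each genotype, with Benjamini-Hochberg adjustment over the genes tested. The read test was tried on simulated reads without variation between libraries, which cannot show how the calls would hold across libraries.

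Members and lists were chosen with earlier results of these data known. Some genes are not reported here and were left out of the lists. Named genes were all members, the 7 further cycle subunits and up to 4 called genes of each list with the smallest deposited p; the text names part of these. Nrf1, Gabpa, Esrra, Tfam, Tfb1m, Yy1, Pdk3, Pdk4, Acod1, Ogdhl and the marker genes were named besides. The read range, gene pairs and neighbours (overlapping, or starting within 1000 bases on the other strand in GENCODE M21) were chosen after the values had been seen. Gene positions come from RefSeq GRCm38.p6, which mm10 corresponds to, by NCBI gene ID (16685 of 16718 found). Promoter windows used the first start listed for a gene. Python 3.11.15, scipy 1.17.1 and pandas 2.3.3 were used.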

Additional observations from a re-analysis of the deposited data

How the results depend on the processing

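The 4 falls and the 1 rise among the 9 members were the same in number when the read test was recomputed on estimated reads. With total reads this follows largely by construction, since the reads were calibrated on the deposited p-values; the number was also the same with the median change of genes at 10 FPKM or more set to 0. At a deposited FDR of at most 0.001 the falls numbered 2 and the rises 0. By the authors' own rule, and with an assumed CV of 10% or 20%, both numbered 0. Members past 1.2-fold numbered 1, against 5 past 1.1-fold and 0 past 1.5-fold. The median change of the members (-0.05, log2) and all 9 ratios kept their direction and stayed within counting error under the other scalings and pseudocounts tried. In the other lists, an assumed CV of 10% left 1 rise of 3 in the glutamine list (Gls2), 2 falls of 11 in glycolysis, 1 of 4 rises among T cell markers, 1 of 2 rises among CD8 markers, and no other call. Without a filter, rises among myeloid markers numbered 3 in place of 1, and 1 in place of 0 among both B cell and erythroid markers. The myeloid rise with the filter was Lyz2 (1.09 FPKM in cKO, 0.22 FPKM in WT), the 1 myeloid marker tested. It was admitted by its cKO value alone, so its direction was favoured by the filter. The B cell and erythroid rises were Pax5 and Hbb-bt, each with 7 estimated reads in cKO and 0 in WT. At 10 FPKM rises numbered 1 of 2 for pyruvate entry, 1 of 3 for glutamine use, 1 of 2 for CD8 markers, and 0 of 1 for activation and myeloid markers. Rises in the citrate and malate list numbered 3 of 4, and falls among mitochondrial ribosomal proteins 13 of 15. Leaving out a replicate and another count normalization were not run, since no library has values of its own. No paired analysis was possible because the columns carry 1 value per genotype and no replicate number. Depth limits Suclg1 and Sucla2 most.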

Other observations

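Among 5 tested relatives and side enzymes of the cycle 0 fell and 1 rose (20%, where 19.9% of all genes tested rose). This was D2hgdh, which oxidises the D form of hydroxyglutarate, with 10.3 FPKM in cKO and 8.05 FPKM in WT, 1.28-fold (95% counting interval 1.13 to 1.45). The call would not have stood with an assumed CV of 10%. Acod1, which diverts aconitate to itaconate in macrophages, stood at 0.20 FPKM in cKO and 0.07 FPKM in WT, and Ogdhl, a relative of Ogdh, at 0.17 FPKM in cKO and 0.31 FPKM in WT, both under the 1 FPKM required for a call.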
